A study of Mus musculus with 5 samples.

Results

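DEAD and DEAH box RNA helicases are enzymes that use ATP to unwind RNA or to strip proteins from it. They were chosen here by name alone, as every gene in the tables named *Ddx* or *Dhx* followed by a digit, which gave 53 genes, 37 *Ddx* and 16 *Dhx*, of 20365 gene names. SLAMseq libraries were made from cardiac fibroblasts (CF) of healthy adult male C57Bl/6J wildtype mice. The cells were isolated by collagenase perfusion of the heart and grown to confluency. The study's isolation protocol also removed epicardial cells and cardiomyocytes and depleted endothelial and immune cells with magnetic beads. Of the 5 libraries, 3 came from CF cultured for 12 h with 0.1 mM 4-thiouridine (S4U), which cells take up and use in place of uridine in new RNA, and 2 came from CF cultured for the same time without it. All 5 were alkylated, so that sequencing reports C where S4U stood. The T>C conversion rate, the fraction of covered T positions that were converted, therefore rises with the share of a transcript made during labeling.

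The helicases act at nearly every step in the life of an RNA. Members in the nucleolus remodel precursors of ribosomal RNA, members of the spliceosome drive its rearrangements, and others load mRNA for export, open 5′ leaders for translation, repress or decay mRNA, or sense viral RNA. Many are needed in every cell, while a few are kept to the germ line or follow interferon.

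Each helicase was read on 3′ UTR intervals, and of several intervals the one best read in the S4U libraries by mean CPM was used. The 53 genes had 103 distinct intervals, 17 genes having only 1, and all used intervals except that of *Ddx43* lay in the last exon. The ends of the transcripts on which the results turn are shown as 30 bases around the poly(A) signal, the hexamer that directs cleavage and is given in capitals. They were read 5′ to 3′ on the gene's strand from GRCm39 and lie inside the intervals given further on.
Ddx3x (chrX:13160192-13160221, plus strand): tggttttattaaAATAAAaagttgaactgc
Ddx3y (chrY:1260723-1260752, minus strand): tgctttttagttAATAAAagaaggtatttg
Ddx5 (chr11:106671186-106671215, minus strand): gttgtcttaactAATAAAtgtgatttttct
Ddx17 (chr15:79411925-79411954, minus strand): taaatacttgacAATAAAggtgtgaatttt
Ddx6 (chr9:44551994-44552023, plus strand): ttaatttatctcAATAAAagcccactggaa
Dhx9 (chr1:153331509-153331538, minus strand): catttaatagaaAATAAAgtattatactga
Ddx24 (chr12:103374248-103374277, minus strand): cttgttttccagATTAAAccaagtaggagt
Ddx58 (chr4:40203778-40203807, minus strand): ataatttaattaATTAAAaatttatgtatt
Of these, 6 carry AATAAA, while *Ddx24* and *Ddx58* carry ATTAAA. On the transcript strand of the last 50 bases of the interval, AATAAA was found in 27 of 47 helicases read in every S4U library (57.4%), against 66.7% of 11329 genes. ATTAAA without AATAAA was found in 10 helicases (21.3%, against 15.3% of genes), and neither in 10 (21.3%, against 17.9%), *Ddx39a*, *Ddx39b* and *Ddx50* among them. The intervals of these 47 helicases had a median length of 642 bases, against 1206 over 11420 genes, and a median T content of 29.9%, against 29.2%.

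Between 506045 reads (S4U replicate 3) and 1843075 reads (no S4U replicate 1) were counted per library on 1 interval per gene, and between 1577 and 6985 of them fell on helicases, 0.307% to 0.379%. Fibroblast markers were detected in every library, 8 of 8, with a summed level of 37659 to 41514 CPM with S4U and 30492 to 34320 CPM without. The markers did not all go one way. *Col1a1*, the most abundant, was higher in every S4U library, while *Pdgfra* (516 to 525 CPM with S4U, 722 and 841 without) and *Ddr2* (245 to 332, 382 and 453) were lower in every one. The 4 cardiomyocyte markers summed to 0.634 to 7.03 CPM, 4 endothelial markers to 93.9 to 199, 4 macrophage markers to 29.6 to 46.0, 3 smooth muscle markers to 2.51 to 7.90 and 3 epicardial markers to 0.543 to 5.93. The epicardial sum of 3.81 to 5.93 with S4U and 0.543 to 1.00 without rested on *Wt1*, with 6, 5 and 3 reads against 1 and 1, since *Msln* had none and *Upk3b* a single read. The part of any of these in the results was not tested.

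The libraries numbered 1 in both groups stood apart from the others. The chi-square of read counts over genes, divided by its degrees of freedom, was 18.2 between S4U replicates 1 and 2 and 12.2 between replicates 1 and 3, against 2.20 between replicates 2 and 3 and 17.7 between the 2 libraries without S4U. Of 44 helicases tested for reads, 20 were higher in both libraries numbered 1 than in all the others, against 30% of 9807 genes. Another 5, *Ddx17*, *Ddx24*, *Ddx39b*, *Dhx8* and *Dhx40*, were lower in both, against 22.7% of genes. The 3 S4U libraries are separate CF preparations by the study's description. The cells without S4U were incubated in parallel, but from which preparations is not given in the sources used here, so the tests measure only the spread between these libraries.

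S4U raised the T>C conversion rate of most helicases, as it did that of most genes. Pooled over the 1 interval used for each helicase, the rate was 0.0401, 0.0394 and 0.0394 in S4U replicates 1, 2 and 3. It was 0.00139 and 0.000618 in replicates 1 and 2 without S4U. Over all distinct intervals together it was lower with S4U, at 0.0353, 0.0358 and 0.0356, and 0.00111 and 0.000652 without. These sets are unlike, since all distinct intervals include overlapping ones of the same gene, which can count a read more than once. These pooled rates give the most weight to the intervals with the most covered T. Of 46 helicases covered in every library, 43 had a raised rate in a beta-binomial test at an adjusted p (Benjamini-Hochberg over 19240 intervals) below 0.05. Of all intervals 94.5% were called, and of the intervals used for genes 95%. Every S4U library lay above both libraries without S4U in 42 of the 46, against 90.4% of genes. Those not called were *Ddx56* (adjusted p = 0.0524, beta-binomial test), *Dhx37* (0.0666), which had 1 to 4 reads a library, and *Dhx34*, which had 1 to 10 reads a library and no conversion among its covered T, of which there were 2 to 13 with S4U. They are named because they missed the threshold. A further 7, *Ddx4*, *Ddx11*, *Ddx25*, *Ddx43*, *Ddx59*, *Ddx60* and *Dhx58*, lacked a covered T in at least 1 library and were not tested. Leaving out both libraries numbered 1, a setting added after the data were seen, left 41 of 46 called. The share of all intervals called in that setting is not given here.

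The precision of a rate follows the covered T positions. At least 1000 were covered in every library for 10 helicases of 2107 genes, and at least 100 for 39 helicases of 8291 genes. The 10 deeply covered helicases had a median rate of 0.0385 (quartiles 0.0377 and 0.0402), and the 2107 genes one of 0.0388 (quartiles 0.0343 and 0.0422). Of the 10, 6 lay between the quartiles of all genes, 2 above and 2 below. Over the 39 helicases the median was 0.0390, against 0.0384 over 8291 genes. Without S4U, the median of the 10 was 0.000569, and that of the genes 0.000530.

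**Figure D1:**
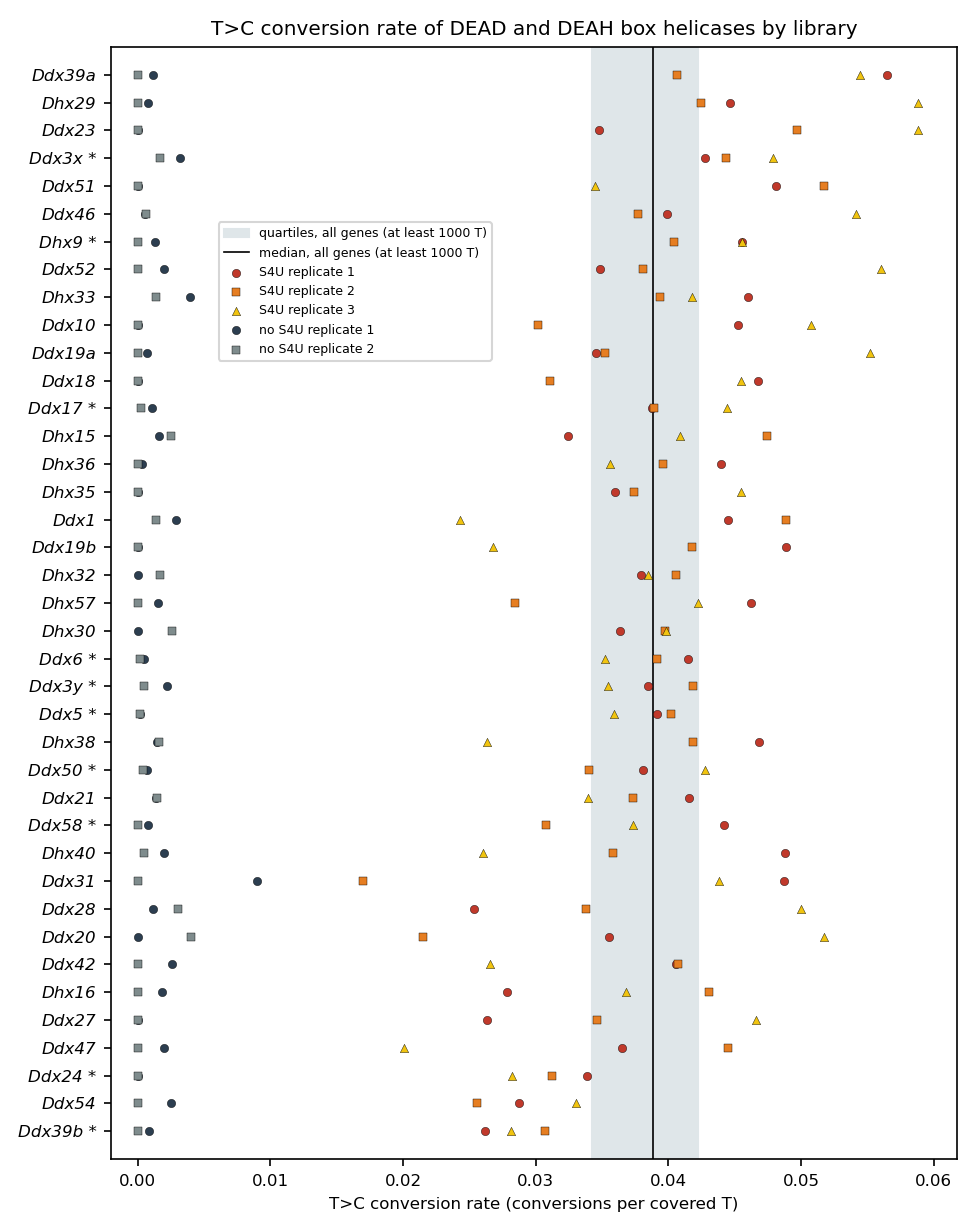
T>C conversion rate (conversions per covered T, linear axis) of the 39 helicases in which every library covered at least 100 T, 1 point per library, in order of the mean over the S4U libraries. Asterisks mark the 10 helicases with at least 1000 covered T, and the band and line give the quartiles (0.0343 to 0.0422) and median (0.0388) of genes covered as deeply; all S4U points lie at 0.0169 or more and all points without S4U at 0.00903 or less.

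The share of reads with at least 1 conversion was a different measure of the same reads. In the 10 deeply covered helicases its median was 60.1%, against 52.7% over the 2107 genes, whose quartiles were 43.9% and 59.5%. The helicases also had more T to convert on each read, a median of 25.1 covered T per read against 21.7 over these genes. The part of the T number in the higher share was not tested. *Dhx9* had the highest share of the 10, 68.4% ± 1.21 (SD, n = 3), and *Ddx24* the lowest, 44.9% ± 3.46 (SD, n = 3). They had 26.6 and 20.0 covered T per read.

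Among translation and decay helicases, *Ddx3x* (ENSMUSG00000000787.14, chrX:13157732-13160222, GRCm39, last exon) was the most abundant helicase and had the highest rate of the 10 as deposited. With the mean rate without S4U subtracted it stood at 0.0425, below *Dhx9* at 0.0432. *Ddx3x* promotes translation of mRNAs with structured leaders. Its rate was 0.0427, 0.0443 and 0.0479 in the S4U libraries, a mean of 0.0450 ± 0.00263 (SD, n = 3) that exceeded 89.5% of the 2107 genes. Without S4U, its rate of 0.00322 and 0.00171 was the highest of the 10 helicases in each library. The S4U and control values were far apart, though, and the rate was raised (adjusted p = 1.02e-05, beta-binomial test). Its level was 535, 492 and 443 CPM with S4U and 557 and 516 CPM without, so that the groups overlapped. CPM here takes as its total the reads counted in that library on 1 interval per gene. Since a 3′ end library yields 1 read per captured transcript end, it is compared between genes without a length term.

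*Ddx3y* (ENSMUSG00000069045.13, chrY:1260715-1263287, last exon), the Y-linked copy of *Ddx3x* that male cells carry beside it, was read at a lower level. Its rate was 0.0385, 0.0418 and 0.0355 with S4U, a mean of 0.0386 ± 0.00318 (SD, n = 3), and 0.00219 and 0.000449 without. Its level was 259.5, 220.1 and 204 CPM with S4U, below both libraries without S4U at 418 and 311 CPM. In these bulk libraries, fewer cells carrying a transcript and less of it per cell cannot be told apart. *Ddx3y* was the only helicase with an unadjusted p below 0.05 in the test of reads, with a log2 fold change of −0.60 (SE 0.24) and an adjusted p of 0.809 (edgeR's quasi-likelihood test). The unadjusted p of 0.0414 rose to between 0.0522 and 0.269 without S4U replicate 2, S4U replicate 3 or either library without S4U (edgeR's quasi-likelihood test), and was 0.0592 without a filter on low counts and 0.0820 with DESeq2. It was 0.0351 without both libraries numbered 1, and 0.0372 without S4U replicate 1, 0.0385 with other size factors and 0.0356 with at least 10 reads in every library (edgeR's quasi-likelihood test). With the replicate number as a block, the log2 fold change was −0.55 and the adjusted p 0.00576 (edgeR). Nothing states that these numbers mark shared cultures. The log2 fold change was negative in each of these settings, from −0.76 to −0.42.

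*Ddx6* (ENSMUSG00000032097.12, chr9:44547786-44552028, last exon), which represses translation and promotes decapping in P-bodies, stood near the middle of all genes in rate. Its rate was 0.0415, 0.0391 and 0.0352 with S4U and 0.000447 and 0.000149 without. The mean of 0.0386 ± 0.00315 (SD, n = 3) exceeded 48.6% of the 2107 genes. At 213, 217 and 318 CPM with S4U and 273 and 245 CPM without, the groups overlapped.

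Of the other translation and decay helicases, *Dhx29* and *Dhx36* were lower in every S4U library than in both without it. So were 13.1% of the 9807 genes tested. *Dhx29*, which helps the small ribosomal subunit scan structured leaders, was at 14.0, 20.1 and 17.8 CPM with S4U and 29.8 and 32.1 CPM without. Its log2 fold change of −0.77 (SE 0.35) did not pass the test (adjusted p = 0.867, edgeR's quasi-likelihood test). *Dhx36*, which unwinds G-quadruplexes, was at 41.9, 34.3 and 35.6 CPM with S4U and 69.4 and 44.2 CPM without, a log2 fold change of −0.53 (SE 0.31, adjusted p = 0.962, same test). Their rates were 0.0486 ± 0.00889 and 0.0397 ± 0.00420 (SD, n = 3). The sixth of this group, *Dhx34* of nonsense-mediated decay, had too few reads for either value. The 6 genes had a median level of 132 CPM, the highest of the groups with at least 3 members. Their median log2 fold change was −0.53 over the 5 tested for reads, against 0.02 over all genes, and none passed the test.

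**Figure D2:**
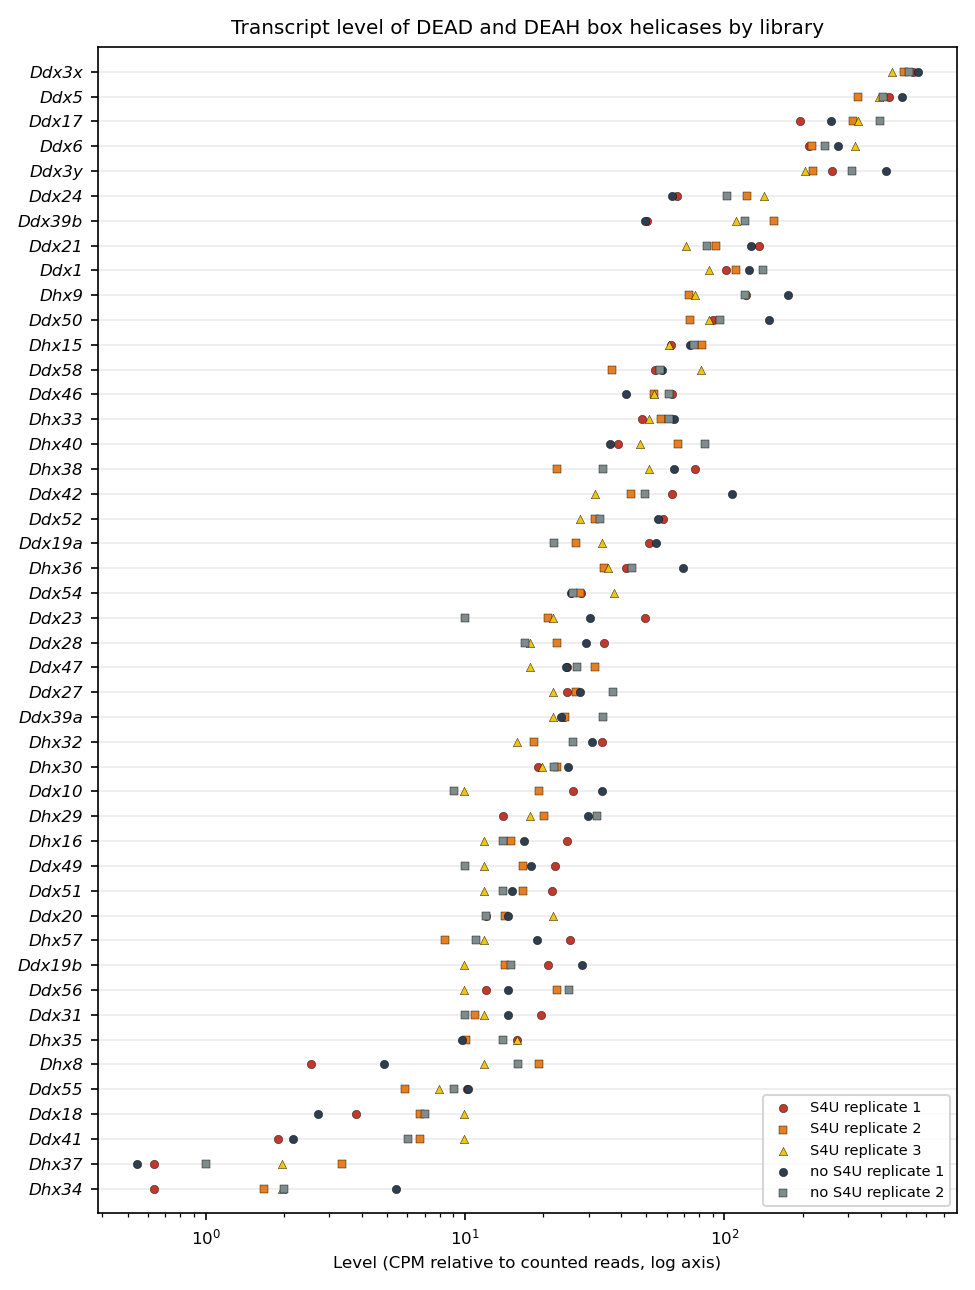
Level of the 46 helicases with a read in every library, in CPM relative to counted reads (log axis), 1 point per library, in order of the mean over the S4U libraries. *Ddx3x*, *Ddx5*, *Ddx17*, *Ddx6* and *Ddx3y* stand above the others in every library, and *Ddx24* and *Ddx39b* are lowest in the libraries numbered 1.

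The helicases of transcription and small RNA work held the next most abundant members. *Ddx5* (ENSMUSG00000020719.16, chr11:106671181-106672675, last exon) and its paralog *Ddx17* (ENSMUSG00000055065.9, chr15:79411897-79414212, last exon) are coregulators of transcription that also take part in microRNA processing and splicing. *Ddx5* was at 431, 326 and 395 CPM with S4U and 484 and 409.6 CPM without. Its rate was 0.0392, 0.0402 and 0.0359 with S4U, a mean of 0.0384 ± 0.00225 (SD, n = 3) above 47.3% of the 2107 genes, and 0.000193 and 0.000194 without. *Ddx5* thus had a rate near the median of all genes and a control rate below it.

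*Ddx17* was at 195, 312 and 328 CPM with S4U and 257 and 399 CPM without, lowest in the library numbered 1 of each group. Its rate was 0.0388, 0.0389 and 0.0444 with S4U, a mean of 0.0407 ± 0.00324 (SD, n = 3) above 64.2% of these genes, and 0.00107 and 0.000278 without. The *Ddx17* interval overlaps exons of *Kdelr3* on the opposite strand. Whether reads were counted by strand is not given in the sources used here, so reads of the overlap cannot be assigned with certainty.

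*Dhx9* (ENSMUSG00000042699.13, chr1:153331502-153331814, last exon), or RNA helicase A, bridges transcription factors and RNA polymerase and resolves structured RNA. Its rate was 0.0456, 0.0404 and 0.0455 with S4U and 0.00130 and 0 without. The mean of 0.0438 ± 0.00296 (SD, n = 3) lay above 84.4% of the 2107 genes. This mean was the second highest of the 10 as deposited, and the highest with the mean rate without S4U subtracted. *Dhx9* was at 121, 72.8 and 77.1 CPM with S4U and 176 and 120.5 CPM without, and the groups overlapped only through replicate 1. Its log2 fold change was −0.63 (SE 0.31, adjusted p = 0.907, edgeR's quasi-likelihood test). The other members of the group, *Ddx1* of the tRNA ligase complex and *Ddx20* of the SMN complex, were raised in rate as well, which made 5 of 5, beside 95% of the intervals used for genes.

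Of the mRNA export helicases, *Ddx39b* had the lowest rate of the 10 deeply covered genes. *Ddx39b* (ENSMUSG00000019432.17, chr17:35472466-35472683, last exon) loads export adaptors on spliced mRNA and also acts in the early spliceosome. Its rate was 0.0262, 0.0307 and 0.0281 with S4U and 0.000883 and 0 without. The mean of 0.0283 ± 0.00226 (SD, n = 3) exceeded 14.0% of the 2107 genes. Its level ran from 50.1 CPM in S4U replicate 1 to 156 and 111 CPM in replicates 2 and 3, and from 49.4 to 120.5 CPM without S4U, so that it was alike in the libraries numbered 1 of both groups and higher in all the others.

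Its paralog *Ddx39a* (ENSMUSG00000005481.20, chr8:84449771-84449980, last exon, overlapping exons of *Adgre5* on the opposite strand) stood at the other end of the range. Its rate of 0.0565, 0.0406 and 0.0545 gave a mean of 0.0505 ± 0.00864 (SD, n = 3), the highest of the 39 helicases with at least 100 covered T. It was read at 24.1, 24.3 and 21.7 CPM with S4U, well below *Ddx39b*, and its smallest library covered 257 T.

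*Ddx19a* (chr8:111701183-111702660) and *Ddx19b* (chr8:111729818-111734912) release export factors from mRNA at the nuclear pore and lie beside each other. *Ddx19a* had rates of 0.0345, 0.0352 and 0.0552 with S4U. *Ddx19b* had 0.0488, 0.0418 and 0.0268, so that the order of the copies turned in replicate 3, the smallest library. Their intervals share a run of 155 identical bases, and reads that fall within it cannot be assigned to one copy by sequence. All 4 export helicases were raised in rate, as were 95% of the intervals used for genes.

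The 16 nucleolar helicases of ribosome biogenesis were lower in level, with a median of 21.4 CPM and a range from 1.99 to 110 CPM. All were read in every S4U library, and 14 were raised in rate, against 95% of the intervals used for genes. The 12 with at least 100 covered T had rates from 0.0291 to 0.0448 with a median of 0.0379. *Ddx24* (ENSMUSG00000041645.16, chr12:103374235-103374470, last exon), the most abundant of them, had a rate of 0.0339, 0.0313 and 0.0282 with S4U. Its mean of 0.0311 ± 0.00285 (SD, n = 3) exceeded 18.6% of the 2107 genes. Without S4U it had 0 conversions in 4439 covered T, which allows a rate of up to 0.000676 by counting error alone. *Ddx24* was at 65.4, 122 and 142 CPM with S4U and 62.9 and 102 CPM without, and its interval overlaps exons of *9330161L09Rik* on the same strand and of *Gm61142* on the other.

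*Ddx21* and its neighbor and paralog *Ddx50* both act on ribosomal RNA in the nucleolus. *Ddx50* (ENSMUSG00000020076.9, chr10:62451571-62452016, last exon) had a rate of 0.0381, 0.0340 and 0.0428 with S4U, a mean of 0.0383 ± 0.00437 (SD, n = 3). It was at 90.1, 73.6 and 86.9 CPM with S4U, below 149 and 96.4 CPM without, with a log2 fold change of −0.47 (SE 0.28, adjusted p = 0.962, edgeR's quasi-likelihood test). *Ddx21* (chr10:62416026-62418128) had a rate of 0.0415, 0.0374 and 0.0339 and was at 136, 92.9 and 71.1 CPM with S4U and 127 and 85.3 CPM without. Both of its highest levels were in libraries numbered 1.

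The 9 splicing helicases, which remodel the spliceosome, were all raised in rate, as 95% of the intervals used for genes were. The 7 with at least 100 covered T had rates from 0.0359 to 0.0478 with a median of 0.0396, and the 9 had levels from 6.16 to 68.5 CPM with a median of 30.7 CPM. Their median log2 fold change was 0.20 over 8 tested for reads, against 0.02 over all genes, and none passed the test. Both mitochondrial helicases, *Ddx28* and *Dhx30*, which serve the mitochondrial ribosome, were raised in rate, with means of 0.0364 and 0.0386 and levels of 24.9 and 20.5 CPM. Of the 4 less well known members, *Dhx32*, *Dhx40* and *Dhx57* were raised in rate and *Ddx59* was not tested.

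The RNA sensors were read unevenly. *Ddx58* (chr4:40203775-40205809, last exon, *Rigi* in the current annotation) encodes RIG-I, a cytosolic sensor of viral RNA. It was at 53.9, 36.8 and 81.0 CPM with S4U and 57.5 and 56.2 CPM without. Its rate of 0.0442, 0.0308 and 0.0374, a mean of 0.0375 ± 0.00669 (SD, n = 3), exceeded 40.6% of the 2107 genes, and its SD was the largest of the 10. *Dhx58*, or LGP2, a regulator of RIG-I signaling, had 8, 1 and 8 reads with S4U and 2 and 0 without. *Ddx60*, an interferon-induced antiviral factor, had 14, 0 and 1 reads with S4U and 24 and 2 without. At these counts neither rate could be compared, and the spread between libraries of *Ddx60* exceeded the difference between groups.

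Germ line helicases were at or near 0. *Ddx43* had no read in any library. *Ddx4*, the Vasa gene, had 0 reads in the S4U libraries and 1 and 2 without S4U, and *Ddx25*, of spermatids, had 4, 0 and 0 reads with S4U and 5 and 1 without. The DNA helicase *Ddx11*, which acts in sister chromatid cohesion, had 2, 3 and 0 reads with S4U and 5 and 5 without. A count of 0 shows only that a transcript was not detectable at this depth.

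Whether S4U changed the level of the helicases was asked of their read counts. None of 44 tested passed in either direction at an adjusted p below 0.05 (edgeR's quasi-likelihood test), and the calls were 0% of 9807 genes. These counts depend on the libraries numbered 1, without which 166 genes were higher and 206 lower of 9620, with 0 of 41 helicases among them. They also change with the replicate number as a block, which called 528 genes higher and 618 lower of 9807. In that fit *Ddx23* was higher, and *Ddx3y*, *Ddx50* and *Dhx9* were lower. Nothing states that the numbers mark shared cultures. Without the block, at an unadjusted p below 0.05, 0 helicases were higher, against 2.84% of genes, and 1 was lower, against 3.11%. DESeq2 called 0 of 51 helicases with an adjusted p, and 0.0823% and 0.0329% of 12144 such genes higher and lower. The median log2 fold change was −0.07 over the helicases and 0.02 over all genes, and 24 of 44 lay below 0, against 48.2% of genes. The other 9 fell under edgeR's filter on low counts and were not tested.

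The ranges of the groups did not overlap for 8 of the 44. Lower in every S4U library were 7, *Ddx1*, *Ddx3y*, *Ddx27*, *Ddx50*, *Dhx29*, *Dhx33* and *Dhx36*, against 13.1% of genes, and higher was 1, *Ddx54*, against 8.2%. *Ddx1*, *Ddx27*, *Ddx54* and *Dhx33* are named only for this result. *Ddx23*, a spliceosome helicase named for having the highest log2 fold change of the 44, was at 49.5, 20.9 and 21.7 CPM with S4U and 30.4 and 10.04 CPM without, a log2 fold change of 0.68 (SE 0.57). It was higher with S4U within each library number, while the groups overlapped.

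**Figure D3:**
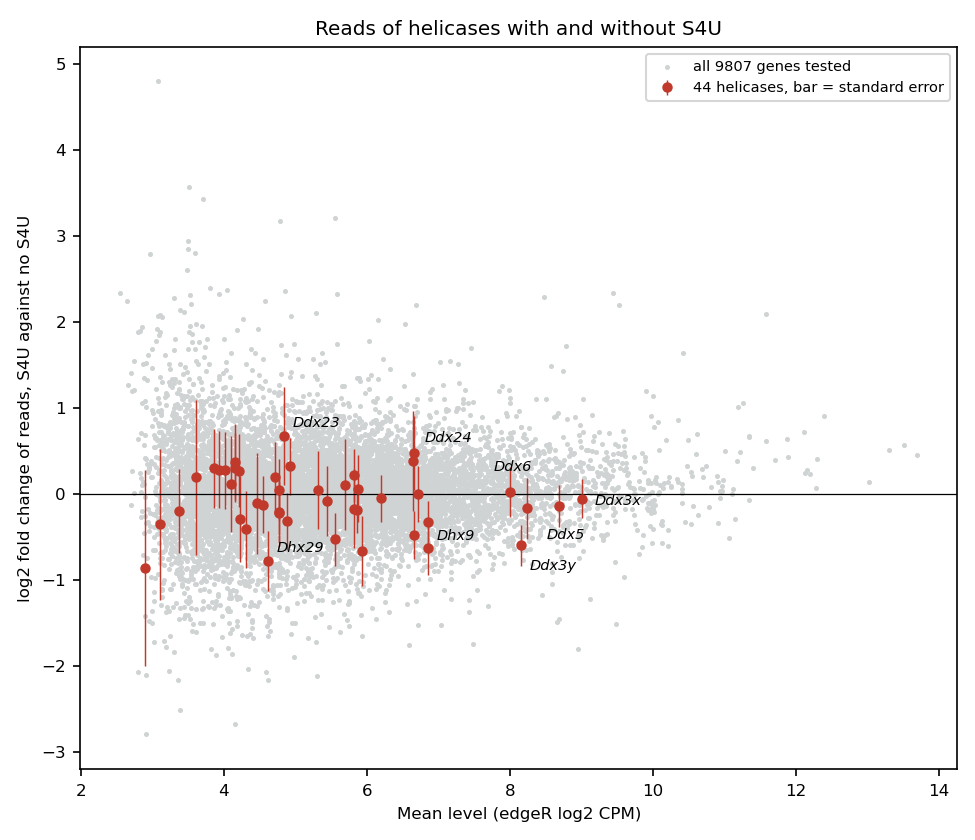
Log2 fold change of reads with S4U against without it, by mean level (edgeR log2 CPM), for 9807 genes (grey) and 44 helicases (red, bars are standard errors). No helicase passed the adjusted test, and the helicases span −0.86 to 0.68 with a median of −0.07.

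Rates of related helicases were compared within each S4U library, over 8 pairs. With 3 libraries, an exact two-sided permutation test by sign flips cannot go below p = 0.25, so no pair could pass. *Ddx39a* exceeded *Ddx39b* in all 3 libraries, by 0.0303, 0.00995 and 0.0264, a mean of 0.0222 ± 0.0108 (SD, n = 3, exact permutation p = 0.25, adjusted 0.5). This difference was the largest of the 8, and the intervals shared no run longer than 7 bases. *Ddx3x* exceeded *Ddx3y* in all 3, by 0.00425, 0.00250 and 0.0124, a mean of 0.00639 ± 0.00529 (SD, n = 3, exact permutation p = 0.25, adjusted 0.5). The longest run shared by their intervals was 51 bases. *Ddx3x* was read 2.06, 2.24 and 2.17 times as often as *Ddx3y* with S4U and 1.33 and 1.66 times as often without, a difference that was not tested.

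*Ddx3x* also exceeded *Ddx6* in all 3 libraries, with a mean difference of *Ddx6* from *Ddx3x* of −0.00637 ± 0.00578 (SD). With the rate pooled over both libraries without S4U subtracted from each gene, this difference was −0.00403. It then no longer had the same sign in all 3 libraries (exact permutation p = 0.5). *Dhx9* exceeded *Dhx36* in all 3, by a mean of 0.00414 ± 0.00506 (SD), most of which came from replicate 3. By share of reads with a conversion, *Dhx9* minus *Dhx36* was −0.546 percentage points, opposite in sign. Without replicate 3, the rate difference was −0.00324 for *Ddx6* minus *Ddx3x*, 0.00122 for *Dhx9* minus *Dhx36* and 0.00337 for *Ddx3x* minus *Ddx3y*. The other 4 pairs differed in both directions. The mean differences were −0.00227 ± 0.00545 for *Ddx5* minus *Ddx17*, −0.000676 ± 0.00707 for *Ddx21* minus *Ddx50*, 0.00253 ± 0.0228 for *Ddx19a* minus *Ddx19b* and 0.00968 ± 0.00980 for *Dhx29* minus *Dhx57* (SD, n = 3 libraries). In all 4 the spread between libraries exceeded the mean, and in the first 3 the mean turned its sign without S4U replicate 3.

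**Figure D4:**
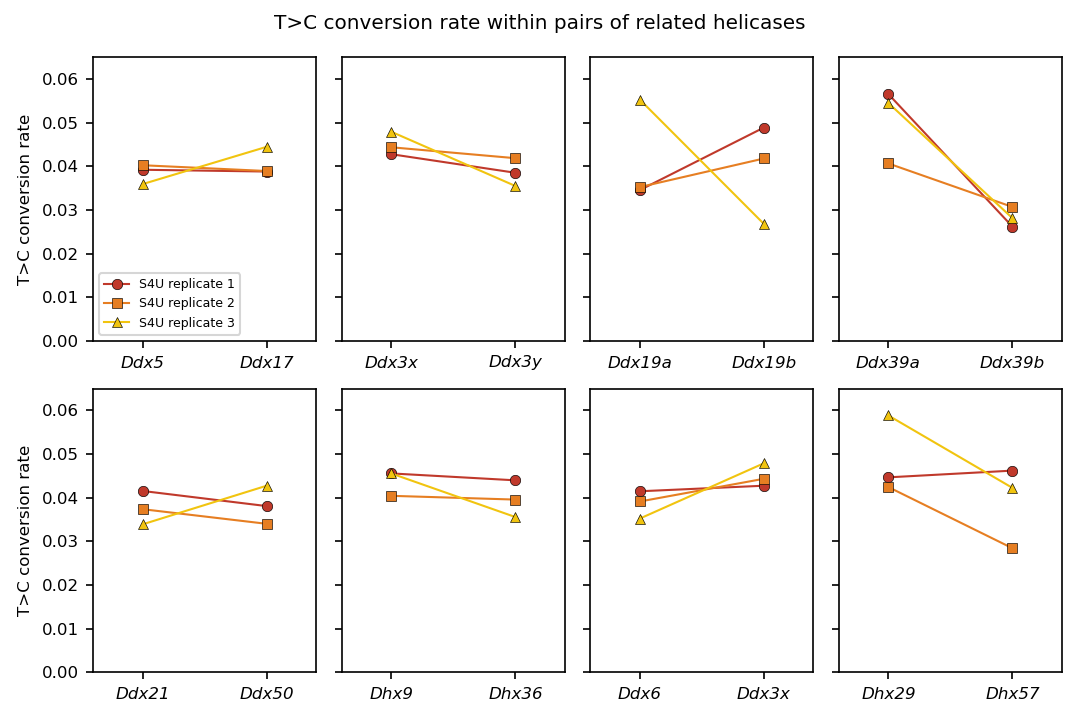
T>C conversion rate of 8 pairs of related helicases, 1 line per S4U library. *Ddx39a* lies above *Ddx39b*, *Ddx3x* above *Ddx3y* and *Ddx6*, and *Dhx9* above *Dhx36* in all 3 libraries. The order within the pair differs between libraries for *Ddx5* and *Ddx17*, *Ddx19a* and *Ddx19b*, *Ddx21* and *Ddx50*, and *Dhx29* and *Dhx57*.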

How the data were processed

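The authors extracted the unique molecular identifiers, mapped the 3′ end reads to mm39 with SLAM-DUNK 0.4.3 and removed duplicates with umi-tools. They deposited, per 3′ UTR interval and library, counts of reads, of reads with a T>C conversion, of covered T and of conversions, none of them normalized. The deposited conversion rate is a fraction, conversions divided by covered T. The deposited CPM divides by 10975173 to 14616278 reads per library, more than were counted on the intervals. CPM was therefore also computed relative to the reads counted on 1 interval per gene and used between libraries.

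Repeated rows were dropped. Samples were grouped by the submitters' labels. The T content of 40380 of 40380 intervals matched GRCm39, and genes were read from the GENCODE annotation of that build. Conversions were compared by a two-sided beta-binomial likelihood-ratio test wherever every library covered at least 1 T. Reads were compared by edgeR's quasi-likelihood test (TMM, filterByExpr), both with Benjamini-Hochberg adjustment over the whole table. On simulated data the beta-binomial test gave an unadjusted p below 0.05 for more unchanged intervals than that level allows. The members, lists, pairs and alternatives were chosen with earlier results of these data known. Alternatives were other minimums of covered T, limma, DESeq2, other size factors and filters, the replicate number as a block and each library left out. Genes named with values were the 5 highest and 5 lowest rates among helicases with at least 1000 covered T, the 5 highest levels, all members of pairs, RNA sensors, helicases passing the test of reads (or, below 3, those at an unadjusted p below 0.05) and those without a read; others are said to be so or serve to account for all members. The versions were Python 3.11.15 with numba 0.67.0, scipy 1.17.1, pandas 2.3.3, numpy 2.4.6, matplotlib 3.10.9 and pysam 0.24.0, and R 4.3.3 with DESeq2 1.42.0, limma 3.58.1 and edgeR 4.0.16.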

Additional observations from a re-analysis of the deposited data

How the results depend on the processing

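Helicases with a raised rate numbered 41 to 44 of 46 to 48 tested with each library left out. They numbered 45 of 46 with limma on the log odds and 46 of 46 with the replicate number as a block in that fit. The share of all intervals called is given for the main fit only, so these counts cannot be set beside it. Only 10, all of those tested, remained with at least 1000 covered T. Read counts gave 0 calls under other size factors, DESeq2, other filters, summed intervals and each library left out. Without both libraries numbered 1, a setting added after the data were seen, there were 0 of 41 helicases too, but 166 genes higher and 206 lower of 9620. With the replicate number as a block there were 4, *Ddx23* at a log2 fold change of 0.86 (adjusted p = 0.0280, edgeR), *Ddx3y* at −0.55 (0.00576), *Ddx50* at −0.53 (0.0387) and *Dhx9* at −0.56 (0.0184), beside 528 genes higher and 618 lower of 9807. Deviations of same-numbered libraries correlated at 0.868 and 0.757 over 5659 genes, and S4U replicate 3 also correlated at 0.621 with no S4U replicate 2. The deviations of the 2 libraries without S4U mirror each other, so these values are not separate agreements. For example, S4U replicate 1 correlated at −0.868 with no S4U replicate 2. Nothing states that numbers mark shared cultures, and the 2 pairs are too few to show it. The median rate was 0.0450 with at least 5000 covered T (*Ddx3x* alone, against 0.0355 over genes) and 0.0382 to 0.0394 with an S4U library left out. As a share of reads with a conversion it was 0.601, and the median level was 2.35 CPM as deposited (2.59 over genes) and 24.9 CPM relative to counted reads (30.7 over genes). These are other scales. With an S4U library left out, the 2.35 ranged from 1.51 (without replicate 1) to 3.01. Over all genes in the tables, read or not, it was 2.10 for 53 helicases against 0.451. Without 1 S4U library, the rate differences ranged from −0.00406 to 0.000867 for *Ddx5* minus *Ddx17*, from −0.0104 to 0.0110 for *Ddx19a* minus *Ddx19b* and from −0.00275 to 0.00340 for *Ddx21* minus *Ddx50*, each turning without replicate 3. By share of reads, *Ddx19a* minus *Ddx19b* was −0.538 and *Dhx9* minus *Dhx36* −0.546 percentage points, opposite in sign to the rates. The cause was not tested. Depth limits the rates of the 43 helicases below 1000 covered T.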

Other observations

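RNA helicases outside the *Ddx* and *Dhx* names were marked by S4U as well. Of 13 on a list of such genes, 13 had a raised rate at an adjusted p below 0.05 (beta-binomial test), where 95% of the intervals used for genes did, and none of 12 tested for reads passed (edgeR's quasi-likelihood test). *Eif4a1*, the translation initiation helicase and the only one with at least 1000 covered T, had a rate of 0.0380 ± 0.00328 (SD, n = 3) and a level of 99.1 CPM relative to counted reads. The highest rates of the list were those of *Mtrex*, the helicase that feeds RNA to the nuclear exosome, at 0.0524 ± 0.0112, and *Eif4a3* of the exon junction complex, at 0.0465 ± 0.00541 (SD, n = 3). The lowest were those of *Mov10*, which acts on retroelement and other RNA, at 0.0232 ± 0.00481, and *Dicer1*, the microRNA-processing enzyme, at 0.0254 ± 0.0224 (SD, n = 3). *Dicer1* had rates of 0.0424 and 0.0337 in S4U replicates 1 and 2 and 0 in replicate 3, where it had 4 reads, so that its place among the lowest rests on that library. *Mov10* and *Dicer1* covered as few as 40 and 55 T in their smallest library.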
